A study of Oncorhynchus mykiss with 6 samples.

Results

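Cholesterol and the other products of the mevalonate pathway are made by a set of enzymes whose messenger RNAs were followed here in rainbow trout (Oncorhynchus mykiss) dorsal skin. Members were all loci that the deposited table annotates with the KEGG pathways for terpenoid backbone biosynthesis or steroid biosynthesis (the pathway to sterols, not that to steroid hormones). This rule took 63 of 41818 loci, 32 from the terpenoid backbone pathway and 31 from the steroid pathway. The rule itself used no expression value, but the members were chosen with earlier results of these data known. The libraries came from yellow mutant trout (3 libraries) and wild-type trout (3 libraries), all dorsal skin at 45 days of age. The study set the phenotypes against each other for differences in skin colour. The labels do not name the mutated gene, the strain, the sex or how the mutant was obtained. Whether each library is a fish of its own is likewise not stated, and so a p-value here speaks of the spread among the 6 libraries, which may be technical.

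The mevalonate pathway builds isoprene units from acetyl-CoA. The units are joined to farnesyl diphosphate, from which the route divides. One arm leads through squalene and lanosterol to cholesterol, a membrane lipid and, in the outer layers of mammalian skin, a part of the permeability barrier. The other arm leads to dolichol (the lipid on which sugar chains are assembled for glycoproteins), to the side chain of ubiquinone, and to the prenyl groups that anchor proteins such as Ras and lamins in membranes. When sterols run low in vertebrate cells, SREBP-2 switches on many of these genes. Rainbow trout descend from an ancestor whose genome was duplicated, and many enzymes have a pair of loci.

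Total counts per library ranged from 15059101 to 19031878. Levels are CPM (counts relative to library size, scaled with TMM factors), and changes are log2 fold changes of yellow mutant over wild type, with standard error (SE) and Benjamini-Hochberg adjusted p from edgeR's quasi-likelihood test over 30691 loci, called at 0.05. Of the 63 members, 60 had a count in some library and 57 passed the filter on low counts. The 3 loci with no count were named LSS, SOAT1 (soat2 in the reference gene table) and CEL. The other 3 untested loci had 0 counts in the yellow mutant against 2 in the wild type (a CEL locus), 0 against 4 (a CYP24A1 locus), and 4 against 1 (a locus whose product is collectrin-like). Names are those in the deposited table, with the locus number where an enzyme has several loci. The main locus of an enzyme is the one with the highest mean CPM, which is not corrected for length.

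The majority of the tested members were higher in the yellow mutant skin. Of 57 members, 31 were higher (54.4%) and 3 were lower (5.26%), while among all tested loci 21.7% were higher and 23.1% were lower. A further 23 members did not pass the test. The median log2 fold change of the members was 0.33, beside -0.0029 over all tested loci, and 44 of the 57 values were above 0. Of the members, 5 were higher with a log2 fold change of at least 1 (4.81% of all tested loci were), and none was lower by that much (6.64% of all tested loci were). The higher ones include a low-count CYP27B1 locus that passed the filter on low counts only through the yellow mutant libraries. The CPM ranges of the phenotypes did not overlap for 38 members, 34 of them higher and 4 lower, beside 54.3% of all tested loci in either direction. In the authors' deposited table, 23 of the 63 members were higher and 3 lower at an FDR under 0.05, beside 12.5% and 14.0% of all loci. Without TMM, on library totals alone, the median of all tested loci moved to 0.20 and that of the members to 0.53. A change of scaling shifts all loci by about the same amount. The gap of 0.33 between the medians therefore had to stay and is no check.

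**Figure D1:**
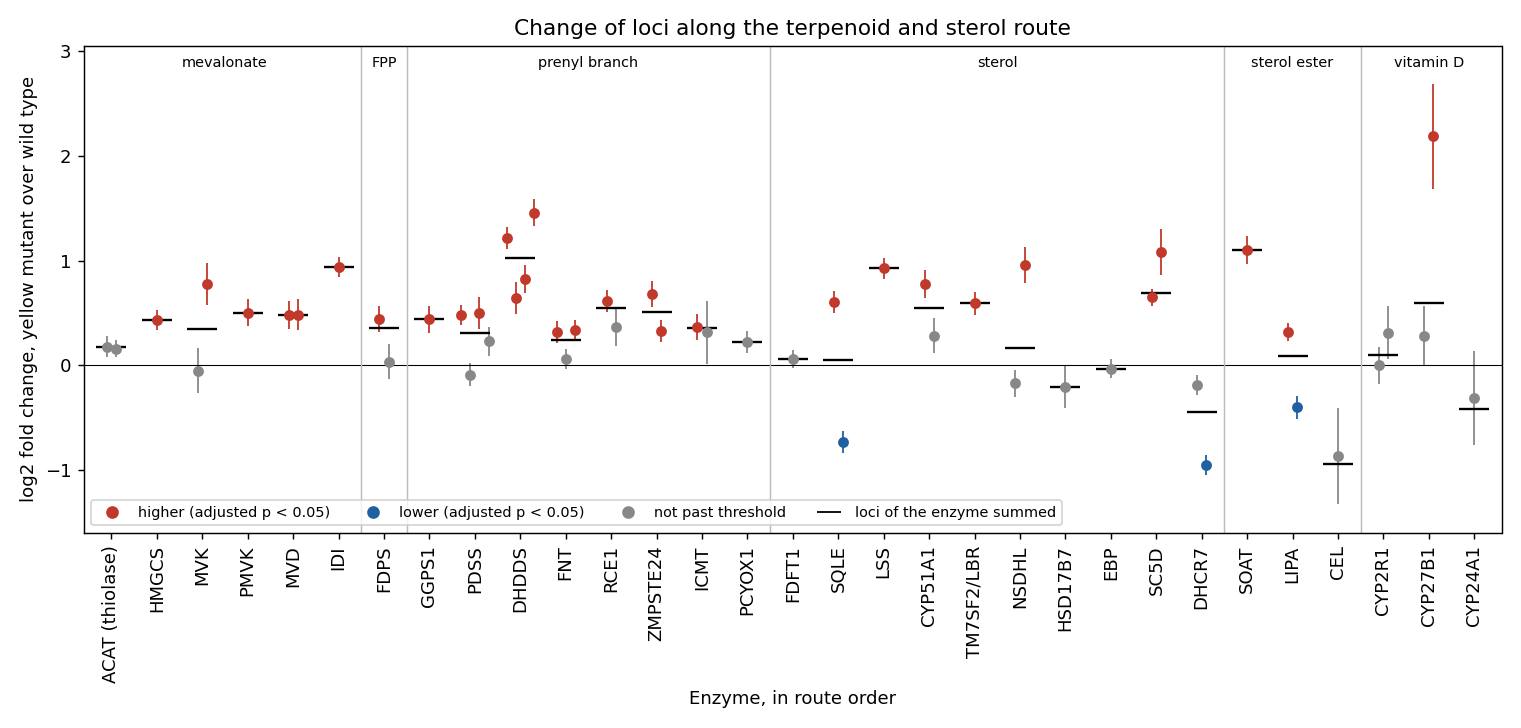
Log2 fold change (yellow mutant over wild type, vertical axis) of the tested member loci shown, with enzymes along the horizontal axis in route order. Points are loci with bars of 1 standard error, coloured by call, and black dashes are the fold change with an enzyme's loci summed. Most points lie above 0, the nus1 loci reach 1.21 and 1.46 in the DHDDS column, and the lowest called locus is a dhcr7 locus at -0.95.

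Trout loci of an enzyme can share reads, so counts were also summed per enzyme and tested again in the whole table. Different subunits were joined as well: nus1 with DHDDS, PDSS1 with PDSS2, and FNTA with Fntb. A higher sum there does not mean that every subunit was higher. Of 33 enzymes, 18 were higher, 1 was lower (DHCR7) and 14 did not pass, with 21.7% of the loci in that table called higher. Without wild-type replicate 1, 2 enzymes were lower. The 18 comprised 4 of 7 mevalonate pathway enzymes, FDPS, 7 of 8 enzymes of the prenyl arm, 5 of 11 enzymes from squalene to cholesterol and SOAT1. Without wild-type replicate 2, GGPS1 (adjusted p = 0.0511), FNT (adjusted p = 0.0540) and ICMT (adjusted p = 0.0583) lost their calls as sums, which left 4 of 8 in the prenyl arm. The GGPS1 sum also lost its call without yellow mutant replicate 1 (adjusted p = 0.0645). FNT did so without yellow mutant replicate 1 (adjusted p = 0.0644) or wild-type replicate 1 (adjusted p = 0.0783). ICMT did so without yellow mutant replicate 2 (adjusted p = 0.0718), without wild-type replicate 1 (adjusted p = 0.0803) and in DESeq2 (adjusted p = 0.0534). The FDPS sum lost its call without yellow mutant replicate 2 (adjusted p = 0.0970), wild-type replicate 1 (adjusted p = 0.0798) or wild-type replicate 2 (adjusted p = 0.0793). Without TMM scaling, all member counts together took 0.106, 0.105 and 0.0991% of the counts in the yellow mutant libraries, against 0.0739, 0.0756 and 0.0773% in the wild-type libraries. The TMM factors were 1.06 to 1.08 in the yellow mutant libraries and 0.920 to 0.950 in the wild-type libraries. These unscaled shares therefore differ more between the phenotypes than the scaled levels that follow. The summed level of all members was 964 ± 39.3 CPM in yellow mutant skin and 811 ± 31.1 CPM in wild-type skin (SD, n = 3 each). For the prenyl arm alone it was 237 ± 4.79 CPM in yellow mutant skin and 169 ± 7.18 CPM in wild-type skin. The route from acetyl-CoA to cholesterol stood at 658 ± 33.5 CPM in yellow mutant skin and 585 ± 30.2 CPM in wild-type skin. This sum and that of all members include acat1, whose product is annotated as mitochondrial. Its mean was 139 CPM in yellow mutant skin and 123 CPM in wild-type skin.

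Markers of some cell types also differed between the phenotypes, where 21.7% of all tested loci were higher and 23.1% lower. Keratinocyte markers (keratins, desmosomal proteins and TP63) took 33334 to 37042 summed CPM in yellow mutant skin, against 83092 to 87463 CPM in wild-type skin, with 3 of 47 tested loci higher and 33 lower. Of the keratinocyte marker loci, 1 of 55 was at 0 in every library. Pigment cell markers summed to 1207 to 1446 CPM in yellow mutant skin, against 549 to 632 CPM in wild-type skin, with 14 of 15 loci higher and none lower. Schwann cell and nerve markers summed to 336 to 413 CPM in yellow mutant skin, against 272 to 308 CPM in wild-type skin, with 9 of 15 higher and 1 lower. Adipocyte markers gave 374 to 473 CPM in yellow mutant skin and 439 to 479 CPM in wild-type skin, with 6 of 14 higher and 3 lower. Skeletal muscle markers summed to 16920 to 25531 CPM in yellow mutant skin and 23335 to 28837 CPM in wild-type skin, with 7 of 30 higher and 7 lower. Erythrocyte markers gave 871 to 1135 CPM in yellow mutant skin and 839.8 to 1262 CPM in wild-type skin, with 1 of 18 tested loci higher, 5 lower and 5 of 33 loci at 0. Leukocyte markers gave 874 to 973 CPM in yellow mutant skin and 954 to 1105 CPM in wild-type skin, with 1 of 10 higher and 2 lower. For muscle, erythrocyte and leukocyte markers the shares of lower loci were 23.3, 27.8 and 20%, near that of all tested loci. Their shares of higher loci were 23.3, 5.56 and 10%, near that of all tested loci or below it. The part of these cell types in the changes of the members was not tested. In bulk skin, fewer cells of a type and less RNA per cell cannot be told apart.

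**Figure D2:**
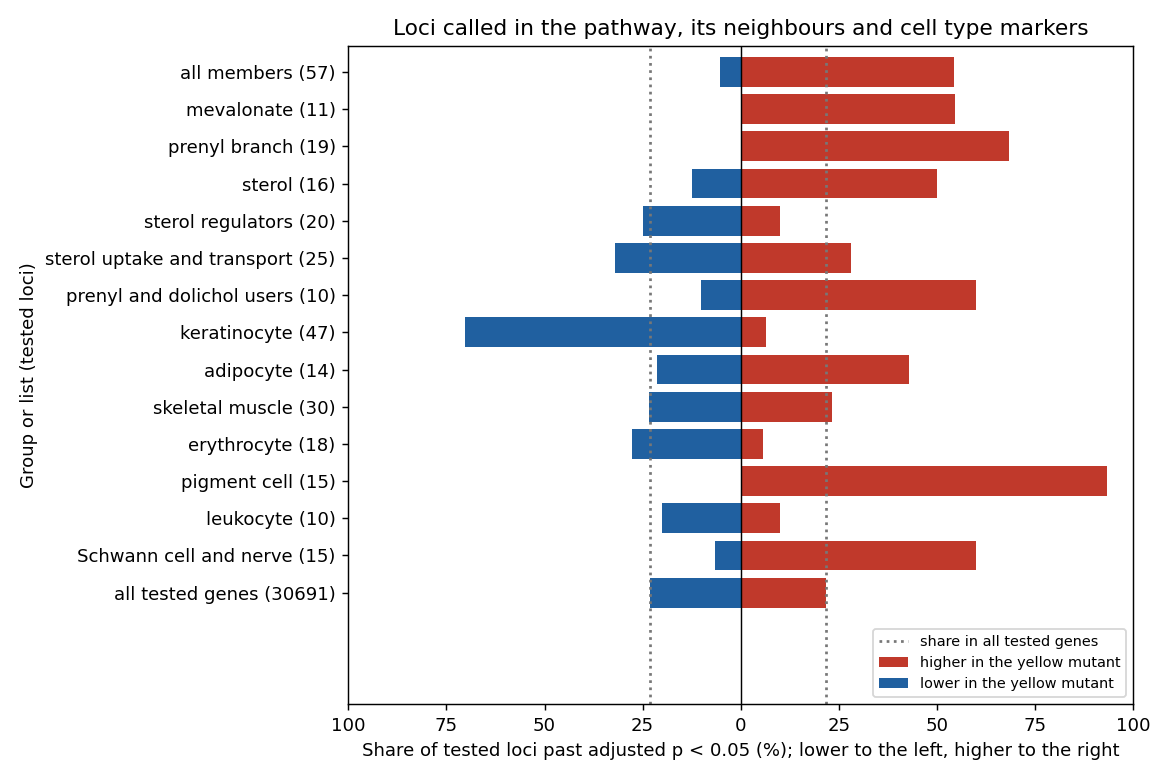
Percentage of tested loci called higher (bars to the right) and lower (bars to the left) in the yellow mutant, for members, pathway neighbours, cell type marker lists and all tested loci, with the number tested beside each name. Dotted lines mark the shares over all tested loci, 21.7% higher and 23.1% lower. The bars of the members reach to the right past the dotted line, the keratinocyte bar to the left and the pigment cell bar to the right.

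In the mevalonate pathway, 6 of 11 loci were higher (54.5%) and none was lower, beside 21.7% and 23.1% of all tested loci. Their median was 0.43 on the log2 scale. Thiolases join acetyl-CoA units, and the product of the main locus, acat1, is annotated as mitochondrial. This locus had 148, 154 and 117 CPM in the yellow mutant libraries, against 132, 122 and 116 CPM in the wild-type libraries. Its groups overlapped (log2 fold change 0.18, adjusted p = 0.178). The other thiolase locus, the cytosolic Acat2, did not pass either (log2 fold change 0.16, adjusted p = 0.137). HMGCS1, the synthase that makes HMG-CoA, had 30.9, 32.3 and 28.3 CPM in yellow mutant skin, against 19.9, 24.3 and 23.7 CPM in wild-type skin. Every yellow mutant library lay above every wild-type library, and HMGCS1 was higher (log2 fold change 0.43, SE 0.095, adjusted p = 0.00236).

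For mevalonate kinase, the main locus MVK (ncbi_110525361) had 3.24, 2.98 and 3.07 CPM in yellow mutant skin, against 4.06, 3.005 and 2.54 CPM in wild-type skin, overlapping values (log2 fold change -0.052, adjusted p = 0.864). The other MVK locus was higher (log2 fold change 0.77, SE 0.20, adjusted p = 0.00719). PMVK, which adds the second phosphate to mevalonate, had 11.1, 10.2 and 13.5 CPM in yellow mutant skin, against 8.23, 8.87 and 7.51 CPM in wild-type skin, with no overlap (log2 fold change 0.50, SE 0.13, adjusted p = 0.00719). The decarboxylase mvd was higher at both loci, and the main one (ncbi_110506596) had 7.80, 7.44 and 8.86 CPM in yellow mutant skin, against 5.84, 6.01 and 5.45 CPM in wild-type skin (log2 fold change 0.48, SE 0.13, adjusted p = 0.0107). The other mvd locus had a log2 fold change of 0.48 (adjusted p = 0.0178), with adjusted p = 0.0525 without yellow mutant replicate 3 and 0.0688 without wild-type replicate 1. The largest change of the pathway was that of IDI1, the isomerase that makes the starter unit of every isoprenoid, with 18.7, 20.2 and 21.3 CPM in the yellow mutant libraries, against 11.1, 9.80 and 10.5 CPM in the wild-type libraries. Its level in the yellow mutant was 1.92 times its wild-type level (log2 fold change 0.94, SE 0.098, adjusted p = 5.80e-06).

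At the branch point, farnesyl diphosphate synthase was higher at its main locus FDPS (ncbi_110520852), with 21.6, 25.1 and 18.6 CPM in the yellow mutant libraries, against 14.9, 14.8 and 18.3 CPM in the wild-type libraries. The groups did not overlap (log2 fold change 0.44, SE 0.12, adjusted p = 0.00928), while the other FDPS locus had a log2 fold change of 0.035 (adjusted p = 0.883). Of the 19 prenyl arm loci that follow, 13 were higher (68.4%) and none was lower, beside 21.7% and 23.1% of all tested loci. The groups did not overlap for 15 (78.9%), beside 54.3% of all tested loci.

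The nus1 loci of the dolichol branch had the largest log2 fold changes of this arm. NUS1 and DHDDS are the subunits of the enzyme that makes the dolichol precursor, and all 4 of their loci were higher. The nus1 locus ncbi_110529588, which had the highest mean CPM of the 4, had 21.7, 22.1 and 21.2 CPM in the yellow mutant libraries, against 10.6, 9.30 and 8.11 CPM in the wild-type libraries (log2 fold change 1.21, SE 0.11, adjusted p = 1.21e-06). The second nus1 locus (ncbi_110522212) had 11.6, 11.4 and 11.1 CPM in yellow mutant skin, against 4.35, 3.58 and 4.42 CPM in wild-type skin (log2 fold change 1.46, SE 0.13, adjusted p = 1.57e-06). The DHDDS loci had log2 fold changes of 0.64 (adjusted p = 0.00363) and 0.82 (adjusted p = 0.000228). Summed over the 4 loci, the level was 56.6 ± 0.182 CPM in yellow mutant skin and 27.8 ± 1.91 CPM in wild-type skin (SD, n = 3 each), 2.04 times higher.

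Enzymes that extend the chain for other products had smaller log2 fold changes than the dolichol synthase loci. GGPS1, which makes the geranylgeranyl donor, had 10.1, 8.07 and 8.70 CPM in yellow mutant skin, against 6.86, 6.30 and 6.60 CPM in wild-type skin at its Ggps1 locus (log2 fold change 0.44, SE 0.13, adjusted p = 0.0152). The groups did not overlap, but the adjusted p was 0.0646 without yellow mutant replicate 1 and 0.0513 without wild-type replicate 2. For the ubiquinone side chain, both loci of PDSS1 were higher and neither locus of PDSS2, the other subunit, passed. The main PDSS1 locus (ncbi_110489826) had 18.6, 19.9 and 18.5 CPM in yellow mutant skin, against 12.9, 12.9 and 14.95 CPM in wild-type skin (log2 fold change 0.48, SE 0.096, adjusted p = 0.00115). The second Pdss1 locus had a log2 fold change of 0.50 (adjusted p = 0.0164), with adjusted p = 0.0678 without yellow mutant replicate 2 and 0.0681 without wild-type replicate 3. The PDSS2 loci stood at 0.23 and -0.089.

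The enzymes of protein prenylation and CAAX processing were higher at 6 of 10 loci, beside 21.7% of all tested loci. FNTA, the subunit that farnesyltransferase shares with the type I geranylgeranyl enzyme, had 19.3, 16.0 and 18.2 CPM in yellow mutant skin, against 12.8, 14.7 and 15.4 CPM in wild-type skin at its main locus (ncbi_110505155; log2 fold change 0.32, SE 0.11, adjusted p = 0.0267). That call was lost without yellow mutant replicates 1 or 3 or wild-type replicates 1 or 2, with adjusted p up to 0.106, while the second Fnta locus was higher in each of these fits (log2 fold change 0.34). Fntb, the subunit specific to farnesyltransferase, had a log2 fold change of 0.060 (adjusted p = 0.639). RCE1, the protease that cuts the end of prenylated proteins, had 15.4, 13.2 and 14.5 CPM in yellow mutant skin, against 9.84, 8.80 and 9.38 CPM in wild-type skin (ncbi_110531865; log2 fold change 0.61, SE 0.11, adjusted p = 0.00043). Its second locus had a log2 fold change of 0.36 and did not pass (adjusted p = 0.111).

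ZMPSTE24, the protease that matures prelamin A, was higher at both loci. The main one (ncbi_110498144) had 19.5, 22.4 and 17.8 CPM in yellow mutant skin, against 12.8, 10.3 and 14.0 CPM in wild-type skin (log2 fold change 0.68, SE 0.12, adjusted p = 0.000561). The second ZMPSTE24 locus had a log2 fold change of 0.33 (adjusted p = 0.0212), with adjusted p = 0.0537 without yellow mutant replicate 2, 0.106 without wild-type replicate 2 and 0.0506 without wild-type replicate 3. The methyltransferase icmt (ncbi_110532118), which caps the cut end, had 10.3, 13.1 and 12.3 CPM in yellow mutant skin, against 8.23, 9.09 and 10.5 CPM in wild-type skin. Its groups overlapped and its adjusted p was the highest among the calls of this arm (log2 fold change 0.36, SE 0.13, adjusted p = 0.0329), with adjusted p between 0.0792 and 0.119 without yellow mutant replicates 2 or 3 or wild-type replicates 1 or 2. Pcyox1, the oxidase that breaks prenylcysteine down, had 12.6, 14.4 and 12.6 CPM in yellow mutant skin, against 11.0, 11.6 and 11.5 CPM in wild-type skin and did not pass (log2 fold change 0.22, adjusted p = 0.0966).

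From squalene to cholesterol the picture was mixed: 8 of 16 tested loci were higher (50%) and 2 were lower (12.5%), beside 21.7% and 23.1% of all tested loci. The median log2 fold change was 0.24. FDFT1, squalene synthase and the first step of this arm, had 30.2, 27.7 and 25.5 CPM in yellow mutant skin, against 25.6, 26.6 and 27.8 CPM in wild-type skin, overlapping values (log2 fold change 0.060, adjusted p = 0.602). Squalene epoxidase, a control point of this arm, split between its loci. SQLE (ncbi_110511248) had 17.6, 16.1 and 18.2 CPM in the yellow mutant libraries, against 10.5, 11.4 and 12.3 CPM in the wild-type libraries and was higher (log2 fold change 0.60, SE 0.10, adjusted p = 0.00033). The other SQLE locus (ncbi_110485563) had 7.92, 7.39 and 7.99 CPM in yellow mutant skin, against 12.5, 12.5 and 13.7 CPM in wild-type skin and was lower (log2 fold change -0.73, SE 0.11, adjusted p = 0.000109), and their sum did not pass (log2 fold change 0.045, SE 0.085, adjusted p = 0.698).

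LSS, which closes the ring to lanosterol, had 19.1, 18.1 and 17.1 CPM in the yellow mutant libraries, against 10.02, 9.37 and 9.14 CPM in the wild-type libraries at the Lss locus. The groups were far apart and the level in the yellow mutant was 1.90 times its wild-type level (log2 fold change 0.93, SE 0.098, adjusted p = 6.61e-06). The lanosterol demethylase cyp51 was higher at its main locus (ncbi_110496341), with 20.3, 20.9 and 17.8 CPM in yellow mutant skin, against 8.89, 12.3 and 13.3 CPM in wild-type skin (log2 fold change 0.78, SE 0.13, adjusted p = 0.00037). Its second locus did not pass (log2 fold change 0.28, adjusted p = 0.194). TM7SF2, a sterol reductase that follows, had 13.7, 12.6 and 12.3 CPM in yellow mutant skin, against 7.57, 9.01 and 9.08 CPM in wild-type skin, again without overlap (log2 fold change 0.59, SE 0.11, adjusted p = 0.000933).

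At the demethylation of sterols at carbon C4, the NSDHL dehydrogenase had its main locus Nsdhl (ncbi_110504568) at 11.1, 8.17 and 9.21 CPM in yellow mutant skin, against 11.0, 10.02 and 10.9 CPM in wild-type skin, overlapping (log2 fold change -0.17, adjusted p = 0.294). The other Nsdhl locus was higher (log2 fold change 0.96, SE 0.17, adjusted p = 0.000596). Hsd17b7, the ketoreductase of the same complex, had 3.93, 3.13 and 2.71 CPM in yellow mutant skin, against 3.76, 4.15 and 3.39 CPM in wild-type skin, and the isomerase EBP had 18.1, 18.0 and 17.8 CPM in yellow mutant skin, against 19.7, 18.6 and 16.8 CPM in wild-type skin. Both overlapped between the phenotypes, with log2 fold changes of -0.21 (adjusted p = 0.422) and -0.033 (adjusted p = 0.796).

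Of the last steps, SC5D was higher and DHCR7 was lower. SC5D, the desaturase that makes 7-dehydrocholesterol, was higher at both loci, the main one (ncbi_110537613) with 41.4, 37.6 and 38.7 CPM in the yellow mutant libraries, against 23.7, 26.6 and 24.9 CPM in the wild-type libraries (log2 fold change 0.65, SE 0.081, adjusted p = 2.82e-05). The other SC5D locus (ncbi_110521978) had 4.68, 5.82 and 5.58 CPM in yellow mutant skin, against 3.40, 2.36 and 1.82 CPM in wild-type skin (log2 fold change 1.08, SE 0.22, adjusted p = 0.00141). DHCR7, the reductase that turns 7-dehydrocholesterol (also the precursor of vitamin D) into cholesterol, was the 1 enzyme lower as a sum (log2 fold change -0.45, SE 0.084, adjusted p = 0.000798). Its main locus dhcr7 (ncbi_110526232) had 34.7, 31.7 and 27.5 CPM in yellow mutant skin, against 33.3, 36.5 and 37.2 CPM in wild-type skin and did not pass (log2 fold change -0.19, adjusted p = 0.123). The second dhcr7 locus (ncbi_110506398) was lower in every yellow mutant library, with 11.97, 13.7 and 11.2 CPM in yellow mutant skin, against 24.2, 23.8 and 23.4 CPM in wild-type skin (log2 fold change -0.95, SE 0.096, adjusted p = 4.26e-06).

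**Figure D3:**
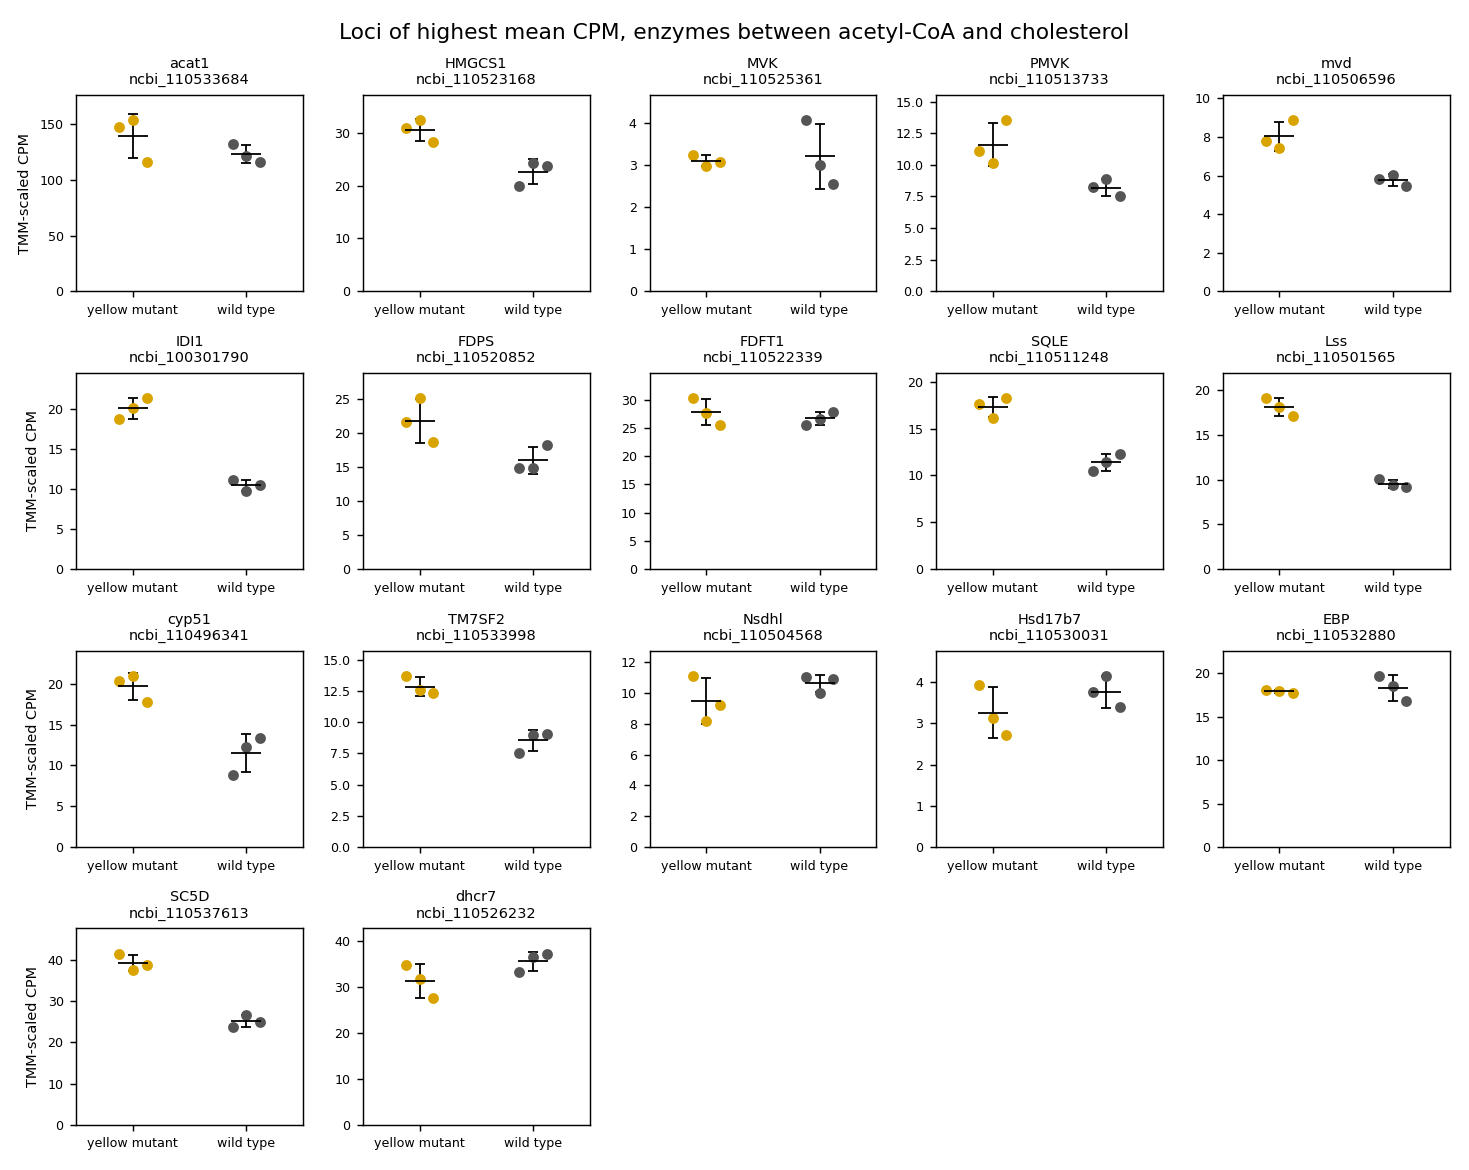
CPM in each library (points) of the main locus (highest mean CPM) of each enzyme shown between acetyl-CoA and cholesterol, with the mean and SD (n = 3 each), yellow mutant left of wild type and each vertical axis starting at 0. IDI1, Lss and SC5D have all yellow mutant points above all wild-type points.

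Among the sterol ester genes, SOAT1, which stores cholesterol as ester, was higher, with 16.5, 13.5 and 13.4 CPM in the yellow mutant libraries, against 6.38, 5.94 and 7.81 CPM in the wild-type libraries at its soat1 locus (log2 fold change 1.10, SE 0.13, adjusted p = 2.33e-05). The lysosomal acid lipase LIPA, which frees cholesterol from esters, was higher at its main locus (ncbi_110498985), with 33.8, 29.5 and 33.7 CPM in yellow mutant skin, against 27.6, 25.1 and 25.3 CPM in wild-type skin (log2 fold change 0.31, SE 0.086, adjusted p = 0.00915). The other locus named LIPA (ncbi_110491379, called lipf in the reference gene table) was lower (log2 fold change -0.40, SE 0.11, adjusted p = 0.0103), with adjusted p = 0.0543 without yellow mutant replicate 2 and 0.152 with library totals alone. CEL, the bile salt-activated lipase of the digestive tract, was close to absent, with 23 counts in the yellow mutant and 35 in the wild type at its main locus (0.636, 0.440 and 0.154 CPM in yellow mutant skin, against 0.716, 0.787 and 0.726 CPM in wild-type skin; log2 fold change -0.87, adjusted p = 0.142).

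The tested loci of vitamin D enzymes, which KEGG files under steroid biosynthesis, lay below the median level of the tested members per length. Their mean over all libraries in the authors' FPKM was 0.122 to 1.42, beside that median of 4.59. CYP2R1, the 25-hydroxylase, had 3.53, 4.70 and 4.10 CPM in yellow mutant skin, against 3.94, 4.22 and 4.24 CPM in wild-type skin at its main locus (ncbi_110506679), overlapping values (log2 fold change -0.0030, adjusted p = 0.991). CYP27B1, which makes the active hormone, had 1.79, 1.96 and 2.05 CPM in yellow mutant skin, against 2.15, 1.002 and 1.57 CPM in wild-type skin at its main locus (ncbi_110494198), also overlapping (adjusted p = 0.463). The other CYP27B1 locus (ncbi_110528221) was higher, on 40 counts in the yellow mutant against 7 in the wild type, with 0.578, 0.636 and 0.870 CPM in yellow mutant skin, against 0.179, 0.0715 and 0.182 CPM in wild-type skin (log2 fold change 2.19, SE 0.50, adjusted p = 0.00322). CYP24A1, which inactivates the hormone, had 1.27, 1.08 and 0.307 CPM in yellow mutant skin, against 1.43, 0.715 and 1.09 CPM in wild-type skin and did not pass (log2 fold change -0.31, adjusted p = 0.605).

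Whether the loci of one enzyme changed alike was tested in 21 member pairs that share a KEGG number, from the log2 ratio of their counts (limma, adjusted over all 1547 such pairs in the table). The ratio differed between the phenotypes in 7 of the 21 pairs, a share near the 34.5% of all 1547 pairs. In the SQLE pair, the locus ncbi_110511248 held 68.9, 68.5 and 69.5% of the pair's counts in the yellow mutant libraries, against 45.7, 47.6 and 47.3% in the wild-type libraries. It was the larger part of the enzyme's counts in all yellow mutant libraries and the smaller part in all wild-type libraries (difference 1.33 on the log2 scale, SE 0.14, adjusted p = 5.15e-06). For NSDHL the second locus held 38.3 ± 2.26% in yellow mutant skin and 22.1 ± 2.32% in wild-type skin (SD, n = 3 each; difference 1.12 on the log2 scale, SE 0.20, adjusted p = 0.000644). For DHCR7 the main locus held 71.8 ± 2.35% in yellow mutant skin and 59.9 ± 1.81% in wild-type skin (difference 0.77 on the log2 scale, SE 0.12, adjusted p = 0.000137), and for LIPA the main locus held 73.3 ± 1.16% in yellow mutant skin and 62.5 ± 1.04% in wild-type skin (difference 0.72 on the log2 scale, SE 0.11, adjusted p = 0.000183). Each of these 4 calls held when any 1 library was left out. The other locus of the LIPA pair is called lipf in the reference gene table, so that pair may not be copies of the same gene. Without yellow mutant replicate 3, 4 of the 21 pairs passed.

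The CYP51A1 and CYP27B1 pairs lost their call when single libraries were left out. The CYP51A1 ratio had a difference of 0.48 (adjusted p = 0.0219), with adjusted p of 0.0853 without yellow mutant replicate 2, 0.0516 without yellow mutant replicate 3 and 0.0937 without wild-type replicate 2. The CYP27B1 ratio had a difference of 1.73 (adjusted p = 0.0152), with 0.0646 without yellow mutant replicate 3. That pair was tested only because its low-count locus passed the filter through the yellow mutant libraries. Pairs that did not pass include MVD, with a difference of 0.015 and a 95% interval from -0.43 to 0.46, and SC5D, at 0.47 and from -0.0093 to 0.95. Reads shared between such loci were counted in a way not given in the sources used here, and their part in these ratios was not tested.

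**Figure D4:**
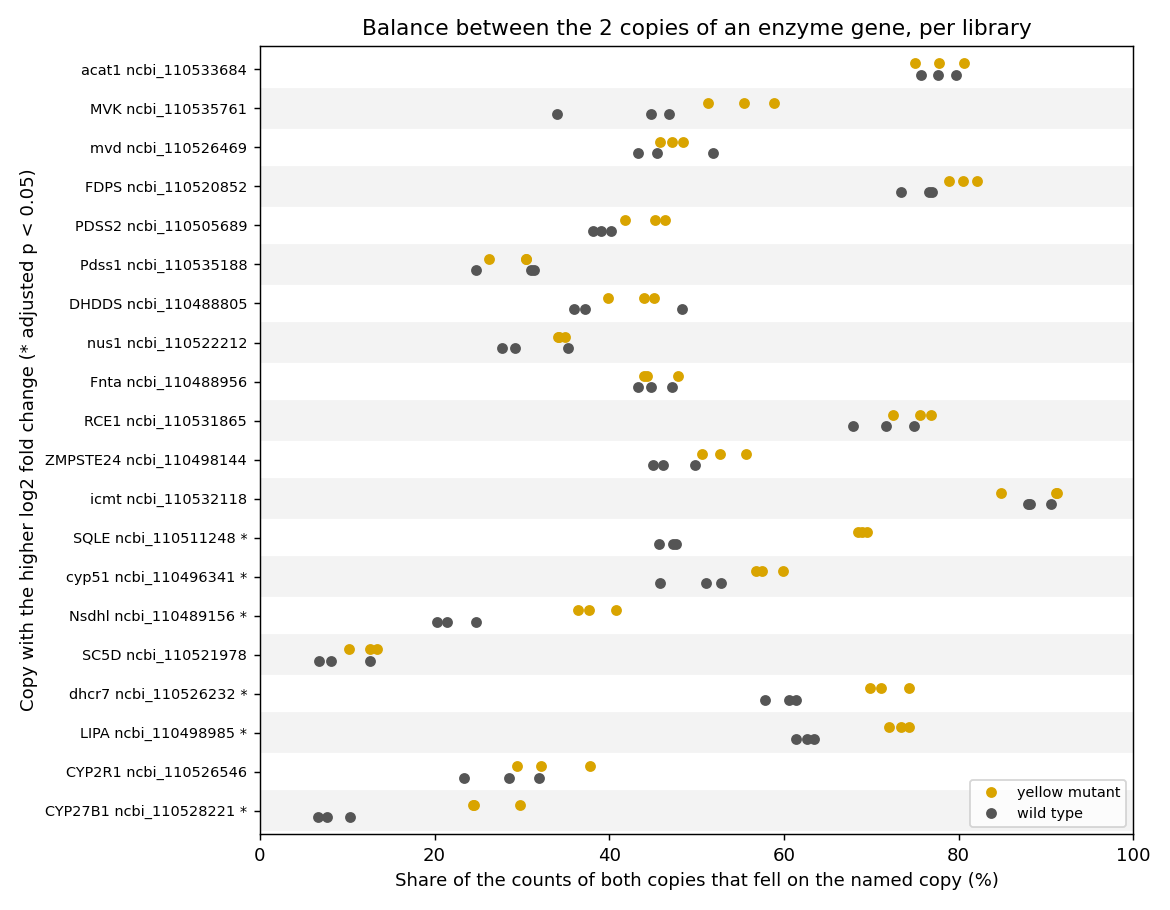
Percentage of the counts of a pair that fell on the named locus (horizontal axis) in each yellow mutant library (upper points of a row) and each wild-type library (lower points), for 20 of the 21 pairs of loci in route order. The named locus is the one with the higher log2 fold change, so a shift to the right in the yellow mutant is set by that choice, and asterisks mark pairs whose ratio passed the test. The SQLE row has its yellow mutant points near 69.0% and its wild-type points near 46.9%.

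Levels between enzymes can be compared only per length, and for that the authors' FPKM were used. Over all 6 libraries, the mean FPKM of the 57 tested members ran from 0.122 to 78.6, with a median of 4.59. The thiolase acat1, which serves ketone body and amino acid breakdown in mitochondria, had the highest, at 88.7 ± 12.4 FPKM in the yellow mutant and 68.5 ± 5.63 FPKM in the wild type (SD, n = 3 each). Within a phenotype the median coefficient of variation of the tested members' CPM was 7.87% in the yellow mutant and 8.32% in the wild type. Of the 57 tested members, 27 had their lowest wild-type value in replicate 1, 16 in replicate 2 and 14 in replicate 3.

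Genes that sense and regulate sterols had a share of lower calls near that of all tested loci and a smaller share of higher calls. The list had 20 tested loci for SREBPs, SCAP, INSIG, the site proteases, ubiquitin ligases and LXR. Of these, 2 were higher (10%) and 5 lower (25%), beside 21.7% and 23.1% of all tested loci. Their median log2 fold change was -0.11. With library totals alone 5 were higher and 3 lower, and the median was 0.087. SREBF1, the master regulator of fatty acid synthesis, had 48.7, 53.4 and 45.8 CPM in the yellow mutant libraries, against 12.4, 15.1 and 16.2 CPM in the wild-type libraries at one locus. It was 3.39 times higher in the yellow mutant (log2 fold change 1.76, SE 0.10, adjusted p = 4.44e-08), a larger change than that of any tested member but the low-count CYP27B1 locus. Its second locus, listed as srebf1 in the reference gene table, did not pass (log2 fold change -0.18, adjusted p = 0.130). The locus with the highest mean CPM in the list, srebf2 (ncbi_110538342), encodes SREBP-2 and had 73.0, 64.2 and 64.7 CPM in yellow mutant skin, against 104, 97.0 and 120.2 CPM in wild-type skin. It was lower in every yellow mutant library (log2 fold change -0.67, SE 0.092, adjusted p = 5.97e-05), while the second srebf2 locus did not pass (log2 fold change -0.0021, adjusted p = 0.986). Other calls, named after their values were seen, were insig1, a retention protein for the SREBP complex, which was higher (log2 fold change 0.27, SE 0.086, adjusted p = 0.0195), and Nr1h3, the sterol-activated receptor LXR, which was lower (log2 fold change -0.34, SE 0.081, adjusted p = 0.00390). Without yellow mutant replicate 1 the adjusted p of insig1 was 0.0561, and without wild-type replicate 1 it was 0.0876. With library totals alone that of Nr1h3 was 0.162. The other Nr1h3 locus (ncbi_110506299) did not pass (log2 fold change 0.068, adjusted p = 0.719). Nor did the other insig1 locus (ncbi_110535597, log2 fold change 0.12, adjusted p = 0.401), though it passed with library totals alone (adjusted p = 0.0215). Loci with insig2 products, at -0.20 and -0.075, did not pass either.

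Sterol uptake and transport genes moved both ways, with 7 of 25 tested loci higher (28%) and 8 lower (32%), beside 21.7% and 23.1% of all tested loci. Their median of -0.10 turned to 0.097 with library totals alone. LRP1, a lipoprotein receptor and the locus with the highest mean CPM in the list (ncbi_110491981), had 143, 147 and 145 CPM in yellow mutant skin, against 198, 199 and 208 CPM in wild-type skin (log2 fold change -0.47, SE 0.073, adjusted p = 0.000165). ABCA1 is a cholesterol exporter. The locus ncbi_110494857, named Abca1 but zgc:172302 in the reference gene table, may not be that gene. It had 6.30, 7.09 and 8.39 CPM in yellow mutant skin, against 3.04, 4.15 and 3.75 CPM in wild-type skin. This locus was higher (log2 fold change 1.002, SE 0.17, adjusted p = 0.000402). The locus called abca1b in the reference gene table (ncbi_110488861) did not pass (log2 fold change -0.061, adjusted p = 0.648). Nor did the Abca1 locus ncbi_110505064 (log2 fold change -0.11, adjusted p = 0.347). By contrast, 3 other ABCA1 loci, named after their values were seen, were lower. They had log2 fold changes of -0.52 (ncbi_110534463, adjusted p = 0.00011), -0.39 (ncbi_110498663, adjusted p = 0.00597) and -0.98 (ncbi_110531729, adjusted p = 0.00288). With library totals alone the adjusted p of ncbi_110498663 was 0.107. Loci of the same name also lay on both sides of 0. NPC1, the lysosomal exporter of cholesterol, had loci at -0.62 and 0.64, and SCARB1, the HDL receptor, at -0.90 and 0.73, all past the test. The product of the SCARB1 locus at 0.73 is annotated as SCARB1-like protein 2, so these loci may not be copies of the same gene. The NPC1 and SCARB1 loci were likewise named after their values were seen.

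Users of dolichol and prenyl groups were higher at 6 of 10 tested loci (60%) and lower at 1 (10%), beside 21.7% and 23.1% of all tested loci. Their median log2 fold change was 0.41, where the prenyl arm had 0.36. Among those higher were ALG5, DOLK, srd5a3 and Dpagt1, named after their values were seen, with log2 fold changes from 0.36 to 0.78. ALG5, DOLK, SRD5A3 and DPAGT1 act in making dolichol or in loading it with sugars. Chml presents Rab proteins for prenylation, and its locus, with the highest mean CPM of this list, had 22.7, 25.9 and 25.4 CPM in yellow mutant skin, against 32.4, 28.9 and 28.3 CPM in wild-type skin. It was lower (log2 fold change -0.28, SE 0.088, adjusted p = 0.0210), with adjusted p = 0.0955 without yellow mutant replicate 1, 0.0875 without wild-type replicate 1, 0.0547 in DESeq2 and 0.509 with library totals alone. Neither PGGT1B, a subunit of that type I enzyme, nor RABGGTA passed (log2 fold changes 0.023 and 0.062).

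Loci for steps of the route that the KEGG annotation left out of the set were also looked at. Ebpl, a relative of EBP, was higher (log2 fold change 0.38, SE 0.13, adjusted p = 0.0327), though not in DESeq2 (adjusted p = 0.0943), without yellow mutant replicate 3 (adjusted p = 0.113) or without wild-type replicates 2 (adjusted p = 0.0751) or 3 (adjusted p = 0.0925). LBR, a protein of the nuclear envelope that can reduce the same sterols as TM7SF2, was lower at its main locus (log2 fold change -0.22, SE 0.081, adjusted p = 0.0408), a call lost in each fit without 1 library but that without wild-type replicate 3. It was also lost in DESeq2 (adjusted p = 0.144), with no filter on low counts (adjusted p = 0.0669) and with the replicate block (adjusted p = 0.0511). With library totals alone the LBR log2 fold change was -0.022 (adjusted p = 0.843). The second Lbr locus and Pcyox1l did not pass (log2 fold changes -0.072 and 0.040). No locus was found by the symbols searched for MSMO1, the methyl oxidase between TM7SF2 and NSDHL, and so it was not analysed here.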

How the data were processed

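Total RNA of dorsal skin was sequenced in 6 libraries. Bowtie2 2.2.8 and TopHat2 2.1.1 were used, per the submitters' processing notes, with no roles given. Counter, treatment of reads shared between loci, strand, genome build and annotation were not given in the sources used here. Raw counts and FPKM per locus and library were deposited by the authors, per the file headers. The authors also deposited mean FPKM signal per phenotype (0 replaced by 0.001), log2 fold changes, p-values and FDR by an unnamed test. The members, lists and named gene rule were chosen with earlier results of these data known. Named loci were that of highest mean CPM at each enzyme, and called loci with a log2 fold change of 1 or more in size.

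Counts were filtered with filterByExpr, scaled with TMM and tested with glmQLFit and glmQLFTest in edgeR 4.0.16 (R 4.3.3), without covariates. P-values were adjusted over all tested loci. Pair ratios, log2 of counts plus 0.5, were tested with limma 3.58.1. Code was tested on simulated data. Alternatives were library totals alone, DESeq2 1.42.0, limma voom, other filters, a replicate block and leaving out each library. Depth was 15059101 to 19031878 counts per library. The gene table of assembly USDA_OmykA_1.1 gave reference names only, matching 62 of 63 members. Some members and list genes enter the counts but are not reported here by name.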

Additional observations from a re-analysis of the deposited data

How the results depend on the processing

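No call of a single member or of an enzyme sum reversed in the alternatives that were run. With library totals alone the median of 4 sterol ester loci was 0.15, beside -0.044 with TMM, the medians of the sterol regulator and the uptake and transport lists also turned to above 0, at 0.087 and 0.097, and so did those of the skeletal muscle, erythrocyte and leukocyte markers, at 0.075, 0.14 and 0.12. Of 684 values of single members under them 30 lost their call and 14 gained one. Over the 12 alternative fits, 24 of 31 higher calls and 2 of 3 lower calls were kept in every one. With library totals alone the median log2 fold change of the members was 0.53, the members were 40 higher and 2 lower, and 26 enzymes were higher. Under this scaling 70.4% of all called loci were higher, beside 48.5% with TMM, and the split of called members was 95.2% higher, beside 91.2%. DESeq2 called 27 members higher and 3 lower, without the second ZMPSTE24 locus, the main FNTA locus and icmt among others. A stricter filter and limma voom each gave 31 higher and 3 lower, and a pseudocount of 2 gave 7 unequal pairs. With no filter on low counts 30 members were higher and 4 lower. Leaving out each library in turn gave 26 to 28 members higher, 2 to 4 lower, a median of 0.33 to 0.36, 13 to 18 enzymes higher and 1 to 2 lower. The pair test was chosen after seeing the data, and leaving out each library gave 4 to 8 unequal pairs, the lowest without yellow mutant replicate 3, where the cause was not tested. The labels number the replicates alike in both phenotypes, but same-numbered libraries correlated at 0.0800, 0.0137 and 0.0557 in their deviations from the phenotype means, so the numbers were not taken as a pairing. Each library correlated best with its own number, a hint from the data and not from the design. With the replicate block 31 members were higher and 4 lower, with a median of 0.33, 18 enzymes higher and 7 unequal pairs. Low depth limits the CEL, CYP24A1 and CYP27B1 loci, which had at most 111 counts per phenotype.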
